A study of Mus musculus with 45 samples.

Results

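The retinal pigment epithelium is the single layer of pigmented cells that lies against the photoreceptors at the back of the eye, and 10 genes known for their work in it were followed here through mouse retina, cortex and hippocampus. The genes were Rpe65, Lrat, Rdh5, Rgr, Rlbp1, Best1, Mfrp, C1qtnf5, Tyrp1 and Dct, taken by symbol from the deposited tables, which list 36172 genes. All 10 were found, with 1 row each. Across the retina libraries the genes did not rise and fall as 1 block: Rpe65, Lrat, Rdh5 and Rgr followed each other, Tyrp1, Dct, Mfrp and C1qtnf5 followed each other with other libraries at the top, Rlbp1 was nearly constant, and Best1 had few counts. None of the 10 passed the test for tamoxifen, and Mfrp and C1qtnf5, which share 1 locus, were higher in males in a call that most single left-out libraries ended.

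The pigment epithelium recycles the retinoid of the visual pigments. Retinol that returns from photoreceptors is esterified, isomerised, oxidised back to the aldehyde and handed over by carrier proteins. The layer also makes melanin, takes up shed outer segments and transports ions and nutrients between the choroid and the retina. When a mouse retina is lifted off for RNA extraction, pigment epithelium and tissues outside it may be carried along in varying amount.

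RNA was sequenced from mice of 3 months that had received tamoxifen, the drug used to switch on inducible Cre recombinase, or the sunflower oil in which it is given. The labels used here name no strain, genotype, dose or interval after dosing. In the retina there were 4 tamoxifen females (animals 951 to 954), 3 vehicle females (955, 957 and 958), 4 tamoxifen males (959 to 962) and 4 vehicle males (963 to 966). The cortex gave 14 libraries and the hippocampus 14, which carry the same animal numbers. Total counts were 9143790 to 18253871 in the retina, 10259763 to 22375210 in the cortex and 31154253 to 44153288 in the hippocampus. The tissue label of the retina was borne out by rod genes, whose 14 listed members summed to between 56517 and 67326 CPM (each count divided by the TMM-adjusted size of its library and multiplied by 1000000), against at most 98.8 CPM in the cortex and 8.16 CPM in the hippocampus. Transcripts of the lens stood out in the retina of animals 951, 959 and 962, at 161, 565 and 62.9 summed CPM, with at most 17.7 in any of the others; 951, 959 and 962 are all tamoxifen animals. The cortex library of animal 962, with 4551 counts, was left out, and for animal 965 no hippocampus was analysed here.

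Promoters of the genes that moved together are shown first, all those of both sets, because the co-variation described further on divides the genes into these sets. The windows come from RefSeq on GRCm38.p6 and run from 250 bases before to 50 bases after the annotated start of transcription. All 10 genes matched, with 9 distinct windows, since Mfrp and C1qtnf5 are annotated from the same start. CATGTG (reverse CACATG), an E-box form bound by the pigment cell factor MITF, was searched on both strands. So were CACGTG, the palindromic E-box, and TAATCC (reverse GGATTA), the core bound by the homeobox factors OTX2 and CRX. Each line gives the 250 bases before the start, 5′ to 3′ on the strand of the gene, and capitals mark matches to any of these motifs.
Rpe65, chr3:159598931-159599180, plus strand: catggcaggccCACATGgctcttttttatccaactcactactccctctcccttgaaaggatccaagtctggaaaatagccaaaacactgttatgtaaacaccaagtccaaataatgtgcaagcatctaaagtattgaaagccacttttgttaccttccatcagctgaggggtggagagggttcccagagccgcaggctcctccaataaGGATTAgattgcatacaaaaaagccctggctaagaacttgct
Lrat, chr3:82903975-82904224, minus strand: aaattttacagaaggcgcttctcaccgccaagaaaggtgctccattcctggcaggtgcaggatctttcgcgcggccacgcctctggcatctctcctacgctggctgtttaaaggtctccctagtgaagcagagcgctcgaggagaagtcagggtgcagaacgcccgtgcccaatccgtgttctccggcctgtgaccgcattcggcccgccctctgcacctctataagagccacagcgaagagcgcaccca
Rdh5, chr10:128919298-128919547, minus strand: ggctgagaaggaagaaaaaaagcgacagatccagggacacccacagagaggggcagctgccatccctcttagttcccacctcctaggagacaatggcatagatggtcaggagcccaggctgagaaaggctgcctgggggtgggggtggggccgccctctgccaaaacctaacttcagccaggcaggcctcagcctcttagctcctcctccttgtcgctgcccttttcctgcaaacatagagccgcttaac
Rgr, chr14:37049015-37049264, minus strand: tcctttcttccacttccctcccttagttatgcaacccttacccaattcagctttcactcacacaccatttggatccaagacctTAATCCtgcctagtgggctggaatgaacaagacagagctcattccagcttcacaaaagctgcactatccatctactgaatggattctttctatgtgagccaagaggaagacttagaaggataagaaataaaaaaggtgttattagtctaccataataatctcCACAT
Mfrp and C1qtnf5, chr9:44101520-44101769, plus strand: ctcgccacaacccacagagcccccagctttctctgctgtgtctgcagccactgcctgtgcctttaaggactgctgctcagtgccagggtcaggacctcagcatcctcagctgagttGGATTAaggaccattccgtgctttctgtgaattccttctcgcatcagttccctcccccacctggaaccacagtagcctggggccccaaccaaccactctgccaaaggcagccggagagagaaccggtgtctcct
Tyrp1, chr4:80833963-80834212, plus strand: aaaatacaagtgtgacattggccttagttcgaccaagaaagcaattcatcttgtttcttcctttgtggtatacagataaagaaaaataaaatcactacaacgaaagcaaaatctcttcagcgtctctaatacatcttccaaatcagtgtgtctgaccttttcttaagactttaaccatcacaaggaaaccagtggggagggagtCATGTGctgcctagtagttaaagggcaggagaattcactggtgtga
Dct, chr14:118052247-118052496, minus strand: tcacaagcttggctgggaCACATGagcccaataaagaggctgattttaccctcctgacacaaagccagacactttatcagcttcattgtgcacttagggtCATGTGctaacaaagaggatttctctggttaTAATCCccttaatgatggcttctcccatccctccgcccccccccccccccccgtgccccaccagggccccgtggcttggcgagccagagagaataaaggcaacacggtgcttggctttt

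Matches to CATGTG were present in the windows of 5 genes, Rpe65, Rgr, Rlbp1, Tyrp1 and Dct, and 14.2% of the 32851 windows in the RefSeq table hold one. Dct has 2 of them. In Tyrp1 the match lies 46 to 41 bases before the start, and in Rgr it spans the start, so that its last letter falls outside the line above. TAATCC was matched in 6 of the 9 distinct windows, those of Rpe65, Rgr, Best1, Tyrp1, Dct and the shared window of Mfrp and C1qtnf5, against 7.06% of all windows. In Tyrp1 that match lies 5 to 10 bases after the start and is not shown. CACGTG occurred in 0 of the 9 windows, against 7.15% of all. The windows of Lrat and Rdh5 hold no match to any of the 3 motifs. Neither CATGTG nor TAATCC separates the sets, as Rpe65, Rgr, Tyrp1 and Dct each hold both. A match describes the letters in the window and no more, and no binding was measured.

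Levels of the genes differed widely in the retina. Divided by the length of each gene's exons (GENCODE vM21), Rlbp1 had the highest median at 172 CPM per kb, followed by Tyrp1 at 19.6, Dct at 17.1, C1qtnf5 at 8.27, Rgr at 7.95, Rpe65 at 5.04, Rdh5 at 3.54, Mfrp at 3.33, Lrat at 1.09 and Best1 at 0.458 CPM per kb. Only Rlbp1 stands clear in this order, with its lowest library (155 CPM per kb) above the highest of any other gene (105 in Dct). The ranges of Tyrp1, from 1.83 to 103 CPM per kb, and Dct, from 1.77 to 105, cover those of C1qtnf5, Rgr, Rpe65, Rdh5 and Mfrp nearly whole. All genes were measured in the same libraries, and whether neighbours in this order differ within libraries was not tested. The counts were made on RefSeq models, and Rgr and Rdh5 span more in GENCODE than there. C1qtnf5 has the same RefSeq span as Mfrp, but its GENCODE exons have 1589 bases against 4334 for Mfrp. Its place above Mfrp follows from these lengths, as it had fewer counts than Mfrp in every retina library. The values of both are uncertain, since all 1589 bases are also exons of Mfrp and shared reads may count for either. In a bulk retina, fewer cells of a type and less RNA per cell cannot be told apart.

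**Figure D1:**
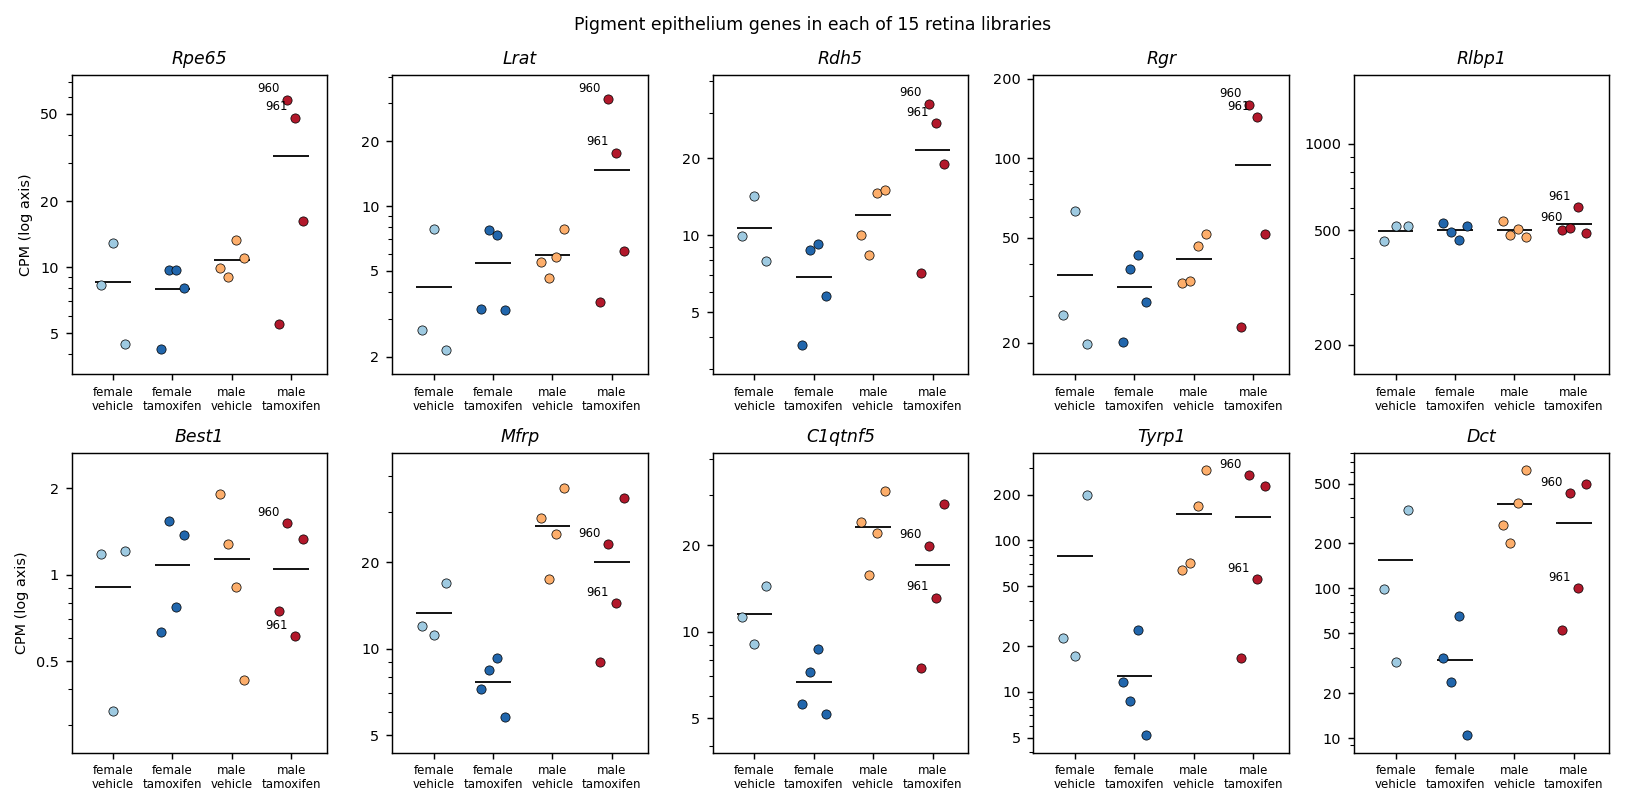
CPM of the 10 genes in the 15 retina libraries, on log axes that differ between panels. Points are libraries, coloured by sex and treatment, and bars are group means; animals 960 and 961 are labelled, and stand above all others for Rpe65, Lrat, Rdh5 and Rgr but not for Mfrp, C1qtnf5, Tyrp1 or Dct.

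The retinoid cycle enzymes were led by Rpe65, the isomerase that turns the retinyl ester into the visual isomer of retinol (gene ID 19892, chromosome 3, 159599181 to 159625307, GRCm38). Rpe65 was at 4.22, 9.74, 9.76 and 8.07 CPM in tamoxifen females 951 to 954, at 8.26, 12.9 and 4.48 CPM in the vehicle females, at 5.52, 58.2, 48.1 and 16.2 CPM in tamoxifen males 959 to 962, and at 9.92, 9.05, 13.3 and 10.97 CPM in vehicle males 963 to 966. Males 960 and 961 thus lay far above the other 13 libraries, while male 959 of the same group was below every vehicle male. The highest library was 13.8 times the lowest, on 52 to 630 counts per library.

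Rgr, an opsin of pigment epithelium and Müller glia that takes part in retinoid turnover (gene ID 57811, chromosome 14, 37037490 to 37048964), repeated this order of libraries. It was at 20.2, 38.0, 43.2 and 28.6 CPM in tamoxifen females, 25.6, 63.1 and 19.8 CPM in vehicle females, 23.1, 160, 144 and 52.0 CPM in tamoxifen males and 33.8, 34.4, 46.7 and 52.0 CPM in vehicle males. Again 960 and 961 were highest, and 951, 958 and 959 were the lowest.

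Lrat, which esterifies retinol and so supplies the substrate of Rpe65 (gene ID 79235, chromosome 3, 82892582 to 82903974), ranged from 2.15 CPM in female 958 to 31.4 CPM in male 960, with male 961 next at 17.7 CPM and a median of 5.83 CPM. Rdh5, the dehydrogenase that oxidises the isomerised retinol (gene ID 19682, chromosome 10, 128913591 to 128919297), ranged from 3.72 CPM in female 951 to 32.7 CPM in male 960, with 961 at 27.4 CPM and 962 at 19.0 CPM. For both, 960 and 961 were the top libraries. For Rdh5 the step from them to the next library was smaller than for Rpe65, Lrat or Rgr.

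Among the pigment genes the highest libraries were other animals. Tyrp1, a tyrosinase-related enzyme of melanin synthesis (gene ID 22178, chromosome 4, 80834230 to 80851718), was at 11.6, 8.69, 25.8 and 5.18 CPM in tamoxifen females, 22.6, 17.4 and 198 CPM in vehicle females, 16.8, 270, 55.5 and 228 CPM in tamoxifen males and 64.1, 71.5, 169 and 291 CPM in vehicle males. The high values belonged to 958, 960, 962, 965 and 966, which come from 3 of the 4 groups, and the 4 tamoxifen females were all low. Female 958 had the second lowest Rpe65 and the fourth highest Tyrp1, and male 961 had the second highest Rpe65 with a Tyrp1 at the median of the 15.

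Dct, dopachrome tautomerase of the same pathway (gene ID 13190, chromosome 14, 118012790 to 118052246), was at 34.5, 23.9, 65.1 and 10.4 CPM in tamoxifen females, 98.4, 32.1 and 333 CPM in vehicle females, 52.7, 434, 101 and 501 CPM in tamoxifen males and 267, 199, 372 and 617 CPM in vehicle males. Its highest library was 59.1 times its lowest, and that of Tyrp1 was 56.2 times its lowest. Each vehicle male lay above all tamoxifen females for both genes. Males 960, 961 and 962 and female 958 lay above all tamoxifen females too.

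Mfrp, a frizzled-related membrane protein of the pigment epithelium (gene ID 259172), and C1qtnf5, a secreted protein with a collagen-like stretch (gene ID 235312), are listed with identical coordinates, chromosome 9, 44101770 to 44109187. Mfrp was at 7.24, 8.44, 9.27 and 5.79 CPM in tamoxifen females, 12.002, 11.2 and 16.9 CPM in vehicle females, 8.997, 23.1, 14.4 and 33.3 CPM in tamoxifen males and 28.6, 17.5, 25.1 and 36.1 CPM in vehicle males. C1qtnf5 counts were between 0.774 and 0.938 of the Mfrp count in every retina library, so the values cannot be read as 2 independent measurements. The lowest libraries were tamoxifen females and male 959, and the highest were males 962 and 966.

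Rlbp1, which encodes the carrier that binds the visual retinoid in pigment epithelium and in Müller glia (gene ID 19771, chromosome 7, 79374870 to 79387027), stayed between 457 CPM in female 955 and 602 CPM in male 961, with a median of 507 CPM. Its standard deviation on the log2 scale was 0.10, below the median of 0.16 over all 14781 genes tested. At the other end, Tyrp1 had a standard deviation of 1.94, Dct of 1.83, Rpe65 of 1.052, Lrat of 0.99, Rgr of 0.90, Mfrp and C1qtnf5 of 0.83 and Rdh5 of 0.82 (log2 scale), which put them at percentiles from 97.9 to 99.8 of the genes tested.

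Best1, a chloride channel of the basal membrane (gene ID 24115, chromosome 19, 9985172 to 10001633), had only 3 to 35 counts per retina library. That put it between 0.335 and 1.91 CPM, with a median of 1.18 CPM.

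Co-variation was measured as the correlation of log2 CPM over the 15 retina libraries for all 45 pairs of genes, with permutation p-values (100000 resamples) corrected over the 45 after Benjamini and Hochberg. Of these, 15 pairs passed 0.05 by Pearson's r and 16 by Spearman's rho. All 6 pairs among Rpe65, Lrat, Rdh5 and Rgr were among them, with r from 0.82 (Lrat and Rdh5, permutation adjusted p = 0.000638, rho = 0.76) to 0.98 (Rpe65 and Rgr, permutation adjusted p = 5.62e-05, rho = 0.95). The p of the latter pair before adjustment, 1e-05, is the smallest that the permutations can give. Without animals 960 and 961, the farthest from the median, r was still 0.59 to 0.92 in these pairs, and within the 4 groups of sex and treatment it was 0.89 to 0.97.

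The 6 pairs among Mfrp, C1qtnf5, Tyrp1 and Dct passed as well. Their r was 0.918 to 0.996, 0.88 to 0.99 without the 2 libraries farthest from the median, and 0.84 to 0.99 within groups. The top value belongs to Mfrp and C1qtnf5, whose exons overlap. Tyrp1 and Dct, which lie on different chromosomes, had r = 0.97 (permutation adjusted p = 5.62e-05, rho = 0.98), and Mfrp and Dct had r = 0.94 (permutation adjusted p = 5.62e-05, rho = 0.94).

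Between the sets the correlation was lower, with r from 0.25 to 0.65 over 16 pairs. The 3 pairs that passed were those of Rdh5 with C1qtnf5 (r = 0.65, permutation adjusted p = 0.0317, rho = 0.71), Tyrp1 (r = 0.64, permutation adjusted p = 0.0329, rho = 0.67) and Mfrp (r = 0.63, permutation adjusted p = 0.0373, rho = 0.71). Rpe65 and Tyrp1 had r = 0.41 (permutation adjusted p = 0.326, rho = 0.54), and 0.32 without 960 and 961. Without these 2 libraries r over the 16 pairs ran from 0.10 to 0.76, which overlaps the values within the sets. Rdh5 then had r = 0.76 with C1qtnf5 and 0.75 with Mfrp, against 0.59 with Lrat, 0.82 with Rgr and 0.85 with Rpe65. The place of Rdh5 is thus less clear without 960 and 961. Of the 9 pairs with Rlbp1 and the 9 with Best1, which have 1 pair in common, none passed, with r between -0.15 and 0.35. The division into sets was read from these same correlations and is a description.

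**Figure D2:**
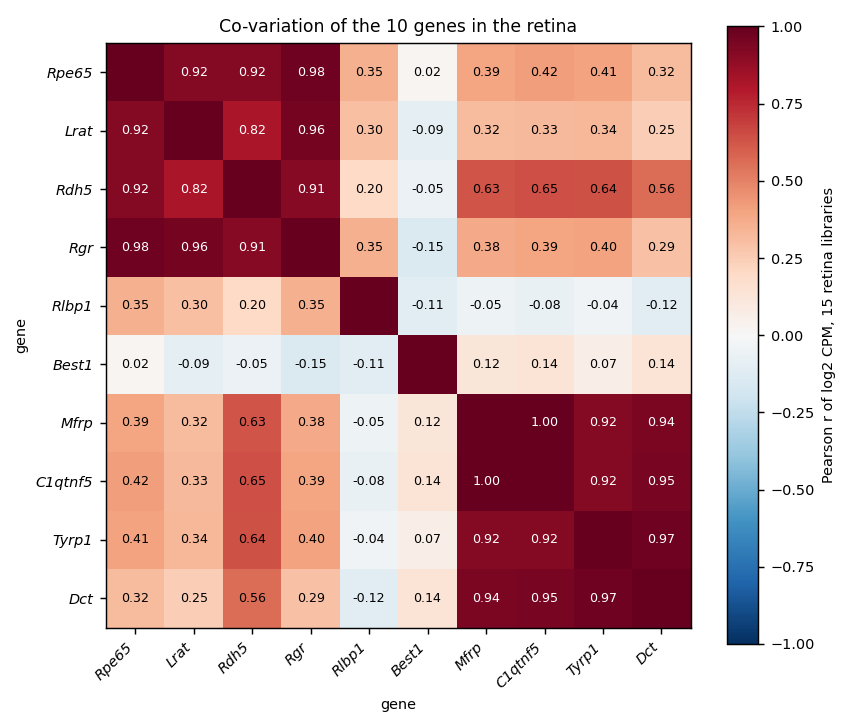
Pearson r of log2 CPM over the 15 retina libraries for every pair of the 10 genes. Colour and number give r; the block of Rpe65, Lrat, Rdh5 and Rgr (0.82 to 0.98) and the block of Mfrp, C1qtnf5, Tyrp1 and Dct (0.918 to 0.996) stand out, while the rows of Rlbp1 and Best1 stay between -0.15 and 0.35.

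**Figure D3:**
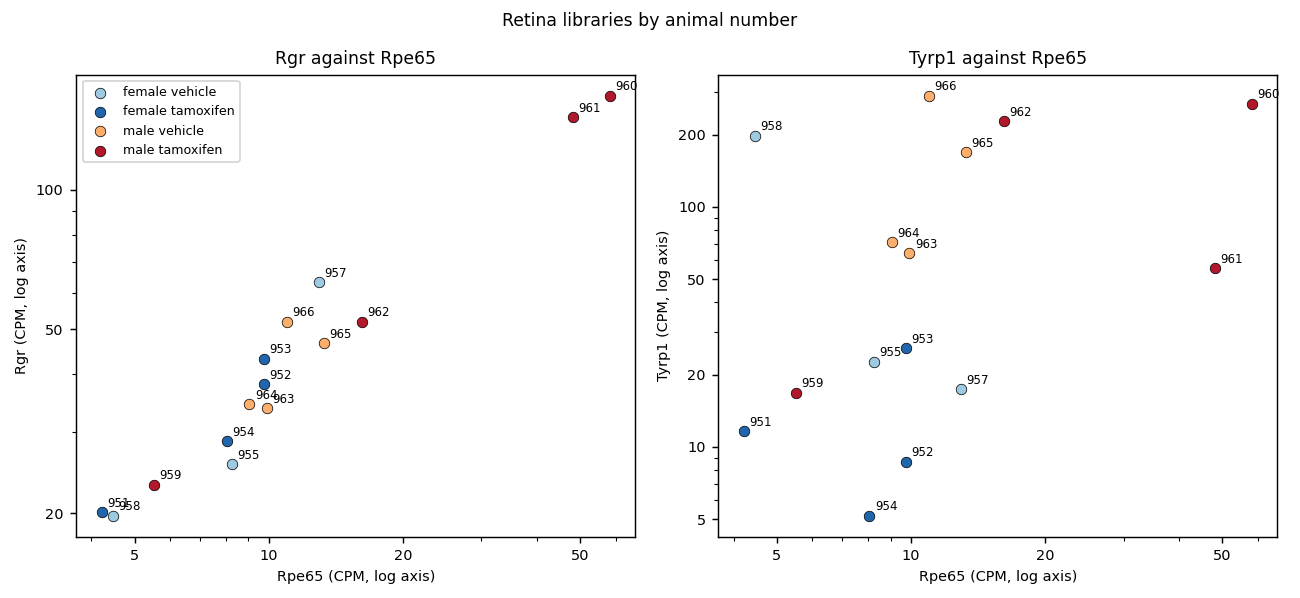
Rgr (left) and Tyrp1 (right) against Rpe65, both axes in CPM on a log scale, 1 point per retina library with its animal number. Rgr rises with Rpe65 across all 15, with 960 and 961 apart at the top right, whereas 958, 966 and 962 have high Tyrp1 with a Rpe65 of at most 16.2 CPM.

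Other genes ordered the libraries much as Rpe65 did. Among 12832 genes with a mean of at least 1 CPM, the most similar to Rpe65 by r over the 15 libraries were Ttr (0.96), the thyroxine and retinol transport protein transthyretin, Trf (0.96), which encodes transferrin, Slc16a8 (0.95), the lactate transporter of pigment epithelium, the paraoxonase Pon1 (0.94) and the proline transporter Slc6a20a (0.94). They were followed by the carbonic anhydrase Car12 (0.91), Slc13a3 (0.90), the collagen genes Col8a1 (0.90) and Col8a2 (0.90), Inpp5k (0.90), Enpp2 (0.89), Sema3c (0.87), Slc16a9 (0.87) and Pex11a (0.86). Spearman's rho of these genes ran from 0.73 for Sema3c to 0.95 for Slc16a8. Ttr lay between 20.9 and 172 CPM and Slc16a8 between 1.81 and 10.9 CPM. These values are a description without a test.

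The genes nearest to Tyrp1, a list drawn up after its pattern was seen, were Pmel (r = 0.99), the scaffold protein of melanosome fibrils, Gpnmb (0.99), the prostaglandin synthase Ptgds (0.98) and Mlph (0.97), which links melanosomes to their motor. Tyrosinase itself, Tyr, had r = 0.97. Pmel ran from 4.87 to 264 CPM, a 54.2-fold range close to those of Tyrp1 and Dct.

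Summed levels of marker lists were set beside the members. The 12 further melanin and melanosome genes summed to between 48.1 CPM in female 954 and 523 CPM in male 966 and had r = 0.99 with Tyrp1 against 0.39 with Rpe65. The 7 melanocyte and neural crest genes, 4 of which (Tyr, Pmel, Mlana and Mc1r) are also in the melanin list, ran from 29.2 to 417 CPM (r = 0.99 with Tyrp1). Singly, Ednrb (0.93) and Sox10 (0.90) followed Tyrp1, Kit did so less (0.44), and Mc1r did not (-0.14). The 10 fibroblast and sclera genes ran from 74.3 to 280 CPM, with r = 0.94 with Tyrp1 and 0.46 with Rpe65. Their single r with Tyrp1 ran from 0.52 (Fmod) and 0.63 (Pdgfra) to 0.94 (Dcn) and 0.95 (Lum). Dcn, a proteoglycan of connective tissue, went from 0.762 to 106 CPM. The part of these lists in the levels of Tyrp1, Dct, Mfrp and C1qtnf5 was not tested. Rlbp1 had its highest list correlation, 0.77 (rho = 0.60), with 14 Müller glia genes, whose sum stayed between 5824 and 7281 CPM. Within this list Slc1a3 followed Rlbp1 most closely (0.86), while Sox9 (-0.26) and Hes1 (-0.22) went the other way. Slc1a3 ranked only 15th among the 12832 genes by r with Rlbp1.

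For Rpe65 the family of 16 relations, with 15 lists and the total count, was tested by permutation and adjusted over the 16. Of these, 3 passed. The 15 choroid plexus genes had r = 0.89 (permutation adjusted p = 0.00048, rho = 0.89), and 3 of its genes, Enpp2, Kcnj13 and Otx2, are also in the list of further pigment epithelium genes. Within it Ttr and Enpp2 followed Rpe65 most closely (r = 0.96 and 0.89), while Otx2 (0.13), Aqp1 (-0.05), Kl (-0.15) and Kcne2 (-0.34) did not. The 20 further pigment epithelium genes had r = 0.75 (permutation adjusted p = 0.00552, rho = 0.72). Of these, Slc16a8 followed Rpe65 most closely (0.95), while Otx2 (0.13) and Serpinf1 (-0.02) did not. With Tyrp1, described without a test, r was 0.81 for this list and 0.72 for the choroid plexus list, so neither was particular to Rpe65. The skeletal muscle list, of which 5 of 10 genes were tested, had r = 0.72 with Rpe65 (permutation adjusted p = 0.0140, rho = 0.76). Pvalb made up most of the skeletal muscle sum, with a median of 18.9 CPM against 26.5 CPM for the sum. Singly the 5 genes had r = 0.47 (Acta1), 0.46 (Actn3), 0.39 (Pvalb), -0.10 (Ckm) and -0.17 (Mylpf) with Rpe65. Without 960 and 961 the r of the 3 lists fell to 0.71, 0.51 and 0.50. Of the 16 relations 0 then passed by the permutation test, on 13 libraries, so no call held once both animals were left out. The choroid plexus call held in all 15 fits that left out 1 animal. Within the 4 groups of sex and treatment r with skeletal muscle was 0.58 and no longer passed (permutation adjusted p = 0.0941), and r with lens genes was -0.82 and passed (permutation adjusted p = 0.00208), against -0.23 over all libraries. The permutations within groups did not allow for the fitted group means, so their p-values tend to be too small. Over the libraries without the lens-rich animals 951, 959 and 962, r with lens genes was 0.39. The total count had r = -0.32 with Rpe65 (permutation adjusted p = 0.39, rho = -0.30).

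The main question of the study was what tamoxifen changed. In the retina none of the 10 genes passed edgeR's quasi-likelihood test with the sexes averaged, where 0.0474% of 14781 genes did. DESeq2 also called 0 of the 10. At an unadjusted p under 0.05 by edgeR were 5 of them, Lrat, Mfrp, C1qtnf5, Tyrp1 and Dct, and 7.14% of all genes. Mfrp, C1qtnf5, Tyrp1 and Dct varied together over these libraries, so the 5 are not separate results. On the log2 scale the pigment genes and the Mfrp locus had negative fold changes, -1.39 ± 0.59 for Tyrp1 (SE, edgeR adjusted p = 0.6255), -1.33 ± 0.50 for Dct (edgeR adjusted p = 0.546), -0.63 ± 0.22 for Mfrp (edgeR adjusted p = 0.506) and -0.63 ± 0.22 for C1qtnf5 (edgeR adjusted p = 0.496). The retinoid genes had positive ones, 0.73 ± 0.38 for Rpe65 (edgeR adjusted p = 0.753), 0.85 ± 0.40 for Lrat, 0.52 ± 0.34 for Rgr and 0.10 ± 0.27 for Rdh5. Rlbp1 was at 0.04 ± 0.05 and Best1 at 0.02 ± 0.35. The median of the 10 was 0.03, against 0.00 over all genes tested.

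The fold changes of the retinoid genes rested on 2 libraries. Without 960 and 961 that of Rpe65 was -0.06, of Rgr -0.16, of Rdh5 -0.27 and of Lrat 0.05. Without the lens-rich animals 951, 959 and 962, which leaves 960 and 961 as the only tamoxifen males, Rpe65 was at 1.21 and passed (edgeR adjusted p = 0.0215). Both settings were chosen after the data were seen.

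Within females 0 of the 10 passed, by edgeR, where 0.0406% of all genes did, or by DESeq2. At an unadjusted p under 0.05 were 4 of the 10, the co-varying Mfrp, C1qtnf5, Tyrp1 and Dct, and 6.37% of all genes. Mfrp averaged 7.69 ± 1.52 CPM in 4 tamoxifen females and 13.3 ± 3.09 CPM in 3 vehicle females (SD), and every tamoxifen female lay below every vehicle female, for C1qtnf5 as well, a separation shown by 2.97% of all genes tested. Red cell genes, of which 3 were tested, separated in the same libraries, with summed levels of 10.4 to 20.3 CPM in tamoxifen females and 31.2 to 69.0 CPM in vehicle females, and their part in the values of Mfrp was not tested. The log2 fold change of Mfrp was -0.81 ± 0.34 (SE, edgeR adjusted p = 0.758). Tyrp1 averaged 12.8 ± 9.04 against 79.4 ± 103 CPM (SD, n = 4 and 3), with 3 of 4 tamoxifen females below all vehicle females and a log2 fold change of -2.71 ± 0.91 (SE, edgeR adjusted p = 0.612). The vehicle mean is carried by animal 958 at 198 CPM.

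Within males 0 of the 10 passed, by edgeR, where 0% of all genes did, or by DESeq2. At an unadjusted p under 0.05 were 4 of the 10, the co-varying Rpe65, Lrat, Rdh5 and Rgr, and 3.99% of all genes. Rpe65 averaged 32.0 ± 25.2 CPM in tamoxifen males and 10.8 ± 1.84 CPM in vehicle males (SD, n = 4 and 4), a log2 fold change of 1.55 ± 0.48 (SE, edgeR adjusted p = 0.999987). In this group 3 tamoxifen males were above all vehicle males and 1 was below all of them. Tyrp1 averaged 142 ± 125 against 149 ± 106 CPM, a log2 fold change of -0.07 ± 0.73.

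The difference between the sexes in the response was tested directly. It called 0 of the 10 genes, by edgeR, where 0% of all genes passed, or by DESeq2. At an unadjusted p under 0.05 were 3 of the 10 and 3.37% of all genes. The difference, male minus female, was 1.65 ± 0.75 for Rpe65, 1.47 ± 0.54 for Rdh5 and 2.63 ± 1.18 for Tyrp1 on the log2 scale (SE, edgeR adjusted p = 0.999 for each).

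Other genes of the same pathways did not pass for tamoxifen either. Of 14 other visual cycle and retinoid genes 0 passed edgeR's test with the sexes averaged and 7 had positive fold changes, with a median of 0.00 on the log2 scale. Stra6, the membrane receptor for retinol carried in blood, was at 0.28 ± 0.19 and Rdh10, a retinol dehydrogenase, at 0.11 ± 0.08. Of 12 other melanin and melanosome genes 0 passed and 11 had negative fold changes, with a median of -0.50; Pmel was at -1.33 ± 0.61, Tyr at -1.05 ± 0.39 and Mlph at -1.01 ± 0.46. Of 20 other pigment epithelium genes 0 passed and 10 were positive, with a median of -0.01. The lists of rods (0 of 14), cones (0 of 10), Müller glia (0 of 14), choroid plexus (0 of 15), melanocytes (0 of 7), endothelium (0 of 10), fibroblasts (0 of 10), microglia (0 of 9), lens (0 of 14 tested), skeletal muscle (0 of 5 tested), oligodendrocytes (0 of 4 tested) and red cells (0 of 3 tested) gave no call in this contrast by edgeR. The 14 lens genes tested were all positive, with a median of 4.38, and their part in the values of the members was not tested.

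**Figure D4:**
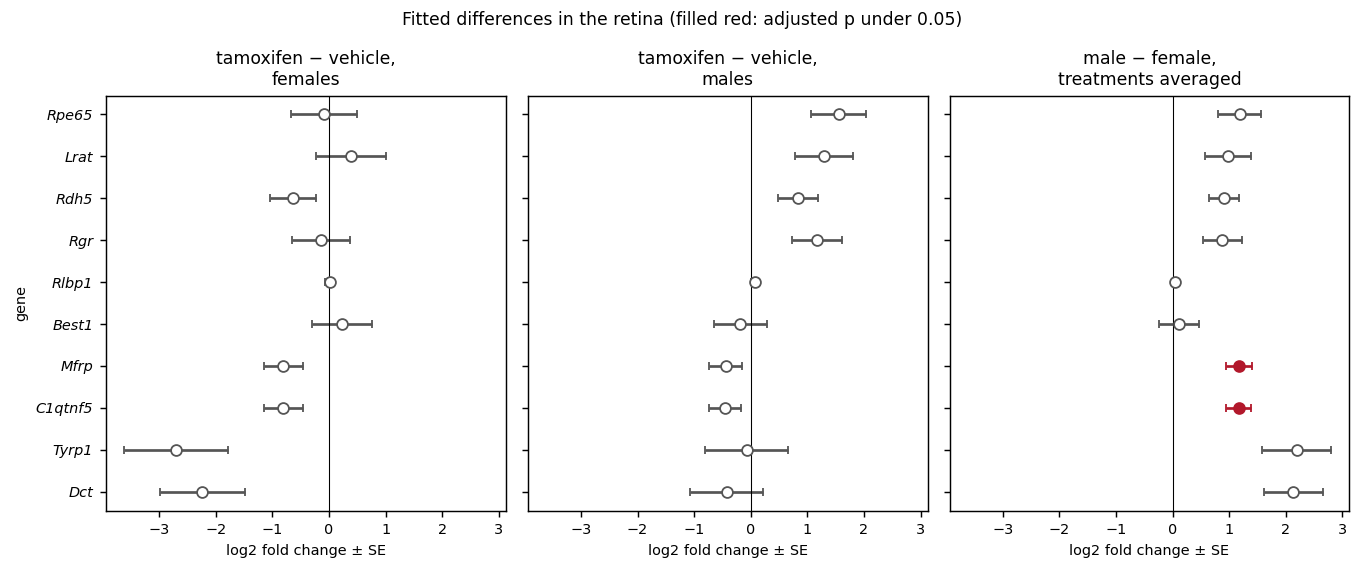
Fitted log2 fold changes of the 10 genes in the retina with standard errors, for tamoxifen in females, tamoxifen in males and males against females. Filled red points passed an adjusted p of 0.05, which only Mfrp and C1qtnf5 did, at 1.18 and 1.17 in the comparison of the sexes.

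Males and females differed at the Mfrp locus. With treatments averaged, Mfrp was higher in males by 1.18 ± 0.23 and C1qtnf5 by 1.17 ± 0.23 on the log2 scale (SE, edgeR adjusted p = 0.0442 for each), 2 of 10 genes where 0.149% of all genes passed and 0.088% passed as higher in males. Mfrp had a median of 24.1 CPM in 8 males and 9.27 CPM in 7 females, and 6 of the 8 males were above all females. DESeq2 called 3 of the 10, with Dct added, and 0.819% of all genes. Leaving out 1 library ended the call of Mfrp in 10 of 15 fits, those without 951, 952, 954, 955, 957, 960, 962, 963, 965 or 966 (edgeR adjusted p up to 0.146), and that of C1qtnf5 in these and without 961. The log2 difference of Mfrp stayed between 0.993 and 1.298 in the 15 fits, and that of C1qtnf5 between 0.998 and 1.29.

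All 10 genes had a positive fold change in males, with a median of 1.07 against 0.00 over all genes. Those of Rlbp1, 0.04 ± 0.05, and Best1, 0.11 ± 0.35, were smaller than their SE, and Mfrp and C1qtnf5 share 1 locus. Dct was at 2.13 ± 0.52 (edgeR adjusted p = 0.128), with a median of 319 CPM in males and 34.5 CPM in females. Tyrp1 was at 2.20 ± 0.61 (edgeR adjusted p = 0.182), with medians of 120 and 17.4 CPM, and its female range reached 198 CPM through animal 958. Rpe65 was at 1.19 ± 0.38 (edgeR adjusted p = 0.225), with medians of 12.1 and 8.26 CPM, and at 0.39 without 960 and 961. Without animal 958 Tyrp1 and Dct also passed (edgeR adjusted p = 0.0344), and without 959 so did Rpe65, Rdh5 and Dct (edgeR adjusted p up to 0.0282).

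Lists of other genes were set beside the comparison of the sexes. Of 12 melanin and melanosome genes 11 were positive in males (median 1.09, 0 passed by edgeR), of 20 pigment epithelium genes 20 (median 0.28, 0 passed), of 10 fibroblast and sclera genes 10 (median 0.70) with the proteoglycan Ogn past the threshold (0.67 ± 0.11, edgeR adjusted p = 0.0167), and of 15 choroid plexus genes 12 (median 0.43) with the tight junction gene Cldn2 past it (0.60 ± 0.10, edgeR adjusted p = 0.0184). Fibroblast genes summed to between 74.3 and 193 CPM in females and between 79.0 and 280 CPM in males. The part of these cells in the difference at Mfrp was not tested. Of 14 rod genes 0 were positive, with a median of -0.03, and 0 passed by edgeR.

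The brain tissues served as a comparison. In a joint fit, 9 of the 10 genes were higher in retina than in cortex and 7 than in hippocampus by edgeR's quasi-likelihood test, where 44.4% and 46% of 15900 genes were called higher. By the low count filter within a tissue, Lrat, Rgr and Tyrp1 were not tested in cortex, and Lrat and Rgr not in hippocampus. They entered the joint fit through the retina, so their calls as higher there were fixed in advance. Tissue and the table in which it was deposited cannot be told apart here. Rgr had at most 2 counts in any cortex library and 4 in any hippocampus library, and Tyrp1 at most 2 counts in any cortex library. Dct was between 10.4 and 617 CPM in retina, 0.344 and 1.37 CPM in cortex and 0.244 and 0.963 CPM in hippocampus. Rlbp1 was at 457 to 602 CPM in retina, 19.9 to 30.0 CPM in cortex and 19.2 to 22.5 CPM in hippocampus, a log2 difference of 4.29 ± 0.05 and 4.50 ± 0.05 (SE).

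**Figure D5:**
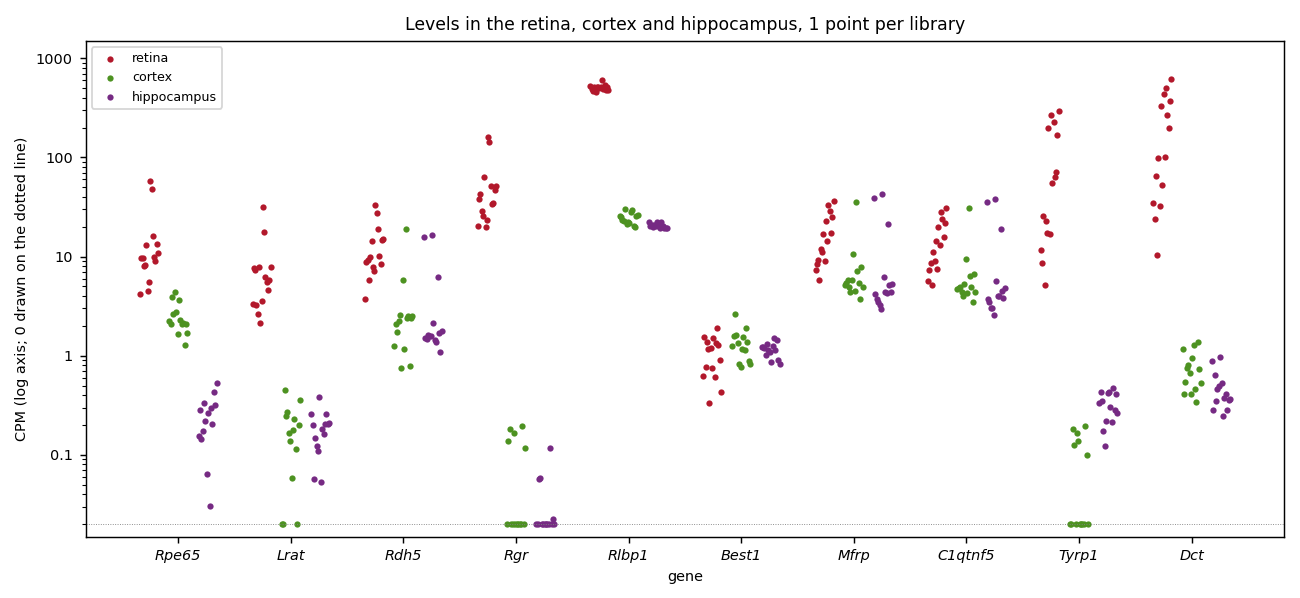
CPM of the 10 genes in 15 retina, 14 cortex and 14 hippocampus libraries, on a log axis; values of 0 are drawn on the dotted line. Rgr, Tyrp1, Dct and Lrat are at or below 1.37 CPM in the brain, Best1 overlaps in all 3 tissues, and single brain libraries stand high for Mfrp, C1qtnf5 and Rdh5.

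Rpe65 had higher values in the cortex than in the hippocampus, a difference described here without a test. It was at 1.27 to 4.35 CPM in all 14 cortex libraries (13 to 65 counts) and at 0.0305 to 0.528 CPM in the hippocampus (1 to 20 counts), without overlap, while Lrat stayed at or below 0.452 CPM in both. Its log2 level in the retina was 2.23 ± 0.23 above the cortex and 5.51 ± 0.29 above the hippocampus (SE, edgeR adjusted p = 1.71e-11 and 5.96e-21). Best1 was the only gene with a lower fitted level in retina, by -0.38 ± 0.20 against cortex (edgeR adjusted p = 0.0776) and -0.25 ± 0.19 against hippocampus (edgeR adjusted p = 0.207). With the animal as a block, the call for Best1 against cortex passed (-0.40, edgeR adjusted p = 0.0443).

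Mfrp, C1qtnf5 and Rdh5 were high in a few brain libraries. Mfrp had a median of 5.40 CPM in cortex, with animal 960 at 35.8 and 958 at 10.6 CPM, and a median of 4.36 CPM in hippocampus, with 958 at 43.1, 951 at 38.9 and 962 at 21.2 CPM. Rdh5 reached 18.9 and 5.73 CPM in those cortex libraries and 16.5, 15.6 and 6.23 CPM in those hippocampus libraries, with medians of 2.31 and 1.60 CPM. The same libraries had the highest sums of choroid plexus genes, 5367 and 2306 CPM in cortex and 4822, 4287 and 2270 CPM in hippocampus, against medians of 443 and 392 CPM. Without these 5 libraries Mfrp was higher in retina than in hippocampus by 1.74 on the log2 scale (edgeR adjusted p = 3.24e-13), where it had been at 0.52 ± 0.36 and not past the threshold (edgeR adjusted p = 0.164), and 0.87 with the animal as a block (edgeR adjusted p = 0.00495). It passed as well without animal 951 (0.96, edgeR adjusted p = 0.00681) or 958 (1.0501, edgeR adjusted p = 0.00478). Against cortex Mfrp was higher in retina by 0.93 ± 0.38 (SE, edgeR adjusted p = 0.0226), a call that ended without animal 966 (0.84, edgeR adjusted p = 0.0550), and that of C1qtnf5 (0.89 ± 0.38, edgeR adjusted p = 0.0277) ended without 955, 959 or 966 (edgeR adjusted p up to 0.0643).

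No member passed the test for tamoxifen in the brain. Of 7 members that passed the filter on low counts in the cortex 0 were called, against 0.606% of all genes, and of 8 in the hippocampus 0, against 0.0652%. By edgeR 0 of them had an unadjusted p under 0.05, and DESeq2 called 0. In the cortex the log2 fold change of Mfrp was 0.57 ± 0.34 and that of Rpe65 was 0.21 ± 0.23, and in the hippocampus that of Rpe65 was -0.59 ± 0.40 (SE, edgeR adjusted p = 0.670, 0.836 and 0.772).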

How the data were processed

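Per the labels' protocols, AllPrep columns gave the RNA and the TruSeq RNA chemistry gave the libraries. The authors deposited 1 table per tissue with estimated counts per gene in columns marked raw, which keep fractional parts; per the file headers the gene models were RefSeq. The submitters' processing notes name DESeq, GRCm38 and mm10 without their roles. Aligner, counting program and strand setting: not given in the sources used here. For this reason overlapping genes such as Mfrp and C1qtnf5 may share reads. The deposited expected counts were rounded to whole numbers; 21.2% of nonzero retina values were whole to within 0.001.

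Each column was assigned to the sample of its tissue whose title its name holds, and the labelled sex and treatment set its group. Replicates are separate animals, taken from these numbers, and the lowest chi-square per gene between replicates was 3.05. The cortex library of animal 962 was left out by the rule that chose the data. Low genes were removed by filterByExpr at a minimum count of 10 and a minimum total of 15. After TMM scaling, edgeR 4.0.16 in R 4.3.3 fitted 1 mean per sex and treatment in each tissue, with Benjamini-Hochberg adjustment over all genes tested and a threshold of 0.05. Standard errors are the log2 fold change divided by the root of F. A joint fit with 12 group means compared tissues. Correlations used log2 CPM with a prior count of 2, computed here. DESeq2 1.42.0 was an alternative, as were other scaling, no filter, leaving out each animal, an additive design, the cortex library of 962 and the animal as a block. The scripts were tested on simulated data.

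The same number in 2 tissues is taken to be the same animal, which is the source of the pairing; deviations of the same animal from group means correlated at -0.06 to 0.15 between retina and cortex and at -0.12 to 0.07 between retina and hippocampus over 13790 genes. The 10 genes, the marker lists and the rule for naming genes were chosen with earlier results of these data known. The rule took all 10 genes, list genes past the threshold and up to 4 per list with the smallest p, and the 15 genes most like Rpe65; of the list genes, those that bear on the 10 are named, and 1 gene that the rule takes is not reported here. Dcn, the genes named for their likeness to Tyrp1 and single list genes named for their r were chosen after their values were seen. So were the alternatives without 960 and 961, without 951, 959 and 962, and without the brain libraries rich in choroid plexus genes.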

Additional observations from a re-analysis of the deposited data

Results flagged for a closer look

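In groups of 4 libraries, a value far from the other 3 by Dixon's criterion was found in 7 of 61 groups of a gene in a tissue. The criterion flags about 1 in 20 independent groups of normally distributed values. These groups share libraries, and Mfrp and C1qtnf5 share a locus, so the count cannot be set against that rate. In the hippocampus of tamoxifen female 951, Rdh5 was at 15.6 CPM, Mfrp at 38.9 CPM and C1qtnf5 at 35.7 CPM, with the next highest library at 1.61, 4.20 and 3.71 CPM. In the hippocampus of tamoxifen male 962, Rdh5 was at 6.23 CPM, Mfrp at 21.2 CPM and C1qtnf5 at 19.0 CPM, with the next at 2.14, 6.22 and 5.69 CPM. These are 2 of the hippocampus libraries with high choroid plexus sums. In the cortex of vehicle male 964, Rdh5 was at 0.782 CPM, on 8 counts, below the next lowest at 2.42 CPM.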

How the results depend on the processing

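Of 392 alternative values for counts of genes or of members called, 316 stayed within 1.5 times. DESeq2 called 59 genes for tamoxifen in the retina with sexes averaged, 32 in females, 6 in males and 121 between the sexes, and 176 in the cortex and 63 in the hippocampus. Without the low count filter the retina counts were 15 with sexes averaged, 2 in males and 47 between the sexes. Without 960 and 961 they were 1 in females and 11 between the sexes, with 0 members called there, and 0 of the 16 relations of Rpe65 passed. Without 951, 959 and 962 they were 2 in females, 8 in males and 63 between the sexes, with 1, 2 and 5 members called with sexes averaged, in males and between the sexes. Leaving out 1 animal gave 4 to 16 genes with sexes averaged, 0 to 7 in females, 0 to 2 in males, 11 to 110 between the sexes with 0 to 5 members, 31 to 97 in the cortex, 2 to 11 in the hippocampus and 1 to 3 relations of Rpe65. The pairing by animal as a block left 13984 genes called against cortex and 14179 against hippocampus, with 10 and 9 members, and changed no call of a member beyond those given for Best1, Mfrp and C1qtnf5 (0.82 against hippocampus).

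Signs turned for small values. For tamoxifen with sexes averaged, Best1 was at -0.00318 with the additive design and between -0.16 and 0.22 over animals left out, and Rdh5 between -0.0375 and 0.25. Without 960 and 961, Rpe65 was at -0.0639, Rdh5 at -0.27, Rgr at -0.16 and Rlbp1 at -0.00347, and Rlbp1 between the sexes at -0.00444. Best1 between the sexes ran from -0.0771 to 0.24 over animals left out. Correlations of Rpe65 turned with residuals from the group means for Best1 (-0.0131), cones (0.0731) and endothelium (-0.21). In that setting lens genes gained a call (-0.82, permutation adjusted p = 0.00208) and skeletal muscle lost its call (0.58, permutation adjusted p = 0.0941). Those permutations did not allow for the fitted group means, so the p-values tend to be too small. Over animals left out they ran from -0.19 to 0.20 for Best1, -0.0675 to 0.47 for Rlbp1, -0.0535 to 0.24 for red cells and -0.17 to 0.0645 for other retinoid genes. Without 960 and 961 they were -0.29 for Rlbp1, -0.00855 for Best1 and 0.29 for other retinoid genes, and without 951, 959 and 962 they were -0.15 for Best1, 0.39 for lens and -0.0895 for red cells. The cause of these changes was not tested. Best1 had 3 to 35 counts per retina library.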
